A study of Homo sapiens with 12 samples.

Results

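TRIM28, SETDB1, ATF7IP, CBX1, CBX3, CBX5, FAM208A, MPHOSPH8, PPHLN1 and MORC2 encode the core of the machinery that silences transposable elements through methylation of histone H3 at lysine 9. They were chosen by symbol, for their known roles, and with earlier results of these data known. All 10 were found among the 26641 genes of the count table (FAM208A is the older symbol of TASOR). The counts come from poly(A) RNA-seq of NCCIT, a human embryonal carcinoma cell line. Cells carried a doxycycline-inducible, catalytically dead Streptococcus pyogenes Cas9 fused to the transactivator VPR for CRISPRa (dCas9-VPR) or, for CRISPRi, to the KRAB repressor domain of ZNF10 (dCas9-KRAB), and 1 of 3 multiplexed guide RNA arrays (CARGO). The LTR5HS Sp array holds 12 guides against LTR5HS, the long terminal repeat of the youngest HERVK endogenous retroviruses, on a scaffold that this Cas9 binds, and its libraries are called recruitment. The paper reports that dCas9 with this array also bound part of the related LTR5A and LTR5B repeats, and some sites outside these repeats. The LTR5HS Sa array has the same targets on the S. aureus scaffold, which S. pyogenes dCas9 does not bind, and the nontarget Sp array has guides without a human target. Libraries of both of these arrays are called control. All 6 lines received doxycycline for 4 days, and each was sequenced in 2 biological replicates, so that each fusion has 2 recruitment and 4 control libraries. Constructs were integrated by PiggyBac transposition, and the 3 lines of a fusion were made from the same dCas9 parent line, so that a difference between fusions cannot be told apart from a difference between the parent lines.

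In background, KRAB zinc finger proteins bind transposable elements in a sequence-specific manner and recruit TRIM28 (KAP1), a scaffold that brings in the histone methyltransferase SETDB1. SETDB1, stabilised in the nucleus by ATF7IP, trimethylates H3K9, and the mark is read by the HP1 proteins CBX5, CBX1 and CBX3 and by the chromodomain protein MPHOSPH8. MPHOSPH8, the scaffold FAM208A and the RNA-binding protein PPHLN1 (periphilin) form the HUSH complex, which spreads the mark and works with the ATPase MORC2. The KRAB domain of dCas9-KRAB acts through the same TRIM28 scaffold, so this fusion depends on several of the genes measured here.

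MPHOSPH8 and PPHLN1 were the members with guide matches nearest to their transcription start sites (TSS), and these matches are printed because the values of both genes are set against them. Guides of the study's list were searched as exact 16-base matches followed by NGG in the hg38 reference, which gave 2938 sites in 947 clusters. Sites are labelled by guide name, and whether each lies in an LTR5HS element was not looked up. Each site is written 5′ to 3′ on its own strand with the NGG in capitals. The MPHOSPH8 sites lie outside annotated genes, on chr13 between 33.1 and 32.9 kb upstream of the TSS of this gene (chr13:19633659-19673441, plus strand, GENCODE 44).
LTR5HS-7 site at chr13:19600543-19600561, minus strand: aaccttggacaataccTGG
LTR5HS-4 site at chr13:19600623-19600641, plus strand: agcccgacacccgtaaAGG
LTR5HS-8 site at chr13:19600636-19600654, plus strand: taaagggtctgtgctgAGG
LTR5HS-2 site at chr13:19600788-19600806, plus strand: aaaaccgccttagggcTGG

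The PPHLN1 sites all lie in introns of this gene (chr12:42326167-42442181, plus strand). The first is 4.26 kb downstream of the TSS and is matched by 1 guide, and the other 3 form a cluster 61.9 to 62.4 kb downstream.
LTR5HS-7 site at chr12:42330431-42330449, plus strand: aaccttggacaataccCGG
LTR5HS-7 site at chr12:42388043-42388061, minus strand: aaccttggacaataccTGG
LTR5HS-8 site at chr12:42388136-42388154, plus strand: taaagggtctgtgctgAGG
LTR5HS-10 site at chr12:42388602-42388620, minus strand: atagagaaagaaaagtGGG

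The other 8 members had no match this close. SETDB1 on chromosome 1 was 290.6 kb from the nearest match, FAM208A on chromosome 3 was 660.4 kb away, TRIM28 on chromosome 19 was 715 kb away, and the remaining 5 were between 1054 and 6338 kb away, against a median of 1008 kb over the 24567 genes that could be placed.

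Libraries held 13601701 to 69797411 counts in genes, with a median of 18256928. The deepest, dCas9-KRAB nontarget Sp replicate 2, stood apart, the next deepest having 24840708. Levels are given as CPM, counts scaled to a common library size. Members were counted well above the detection floor, with a lowest count of 562 for FAM208A in dCas9-KRAB LTR5HS Sa replicate 2 and a highest of 52298 for TRIM28 in the deepest library. PCAT14, a non-coding RNA driven from an LTR5HS and used to check recruitment, went from 5.68 ± 3.20 CPM (SD, n = 4) to 483 ± 34.8 CPM (n = 2) with dCas9-VPR and from 33.4 ± 11.3 to 0.532 ± 0.753 CPM with dCas9-KRAB. ZNF10, the source of the KRAB domain, was 4.0 log2 units higher in dCas9-KRAB than in dCas9-VPR control libraries (SE 0.35). RELA, part of VPR, was 0.26 log2 units lower (SE 0.10). Both directions went with the labels, but 27.2% of all tested genes were called lower in this comparison, so RELA cannot check them. Whether reads of the fusion transcripts are counted at these 2 genes is not known. Embryonal carcinoma markers were detected in all libraries but not at one level, with NANOG from 1.05 to 185 CPM and LIN28A from 282 to 1519 CPM. The summed level of 8 such markers was 837 to 1506 CPM in dCas9-VPR controls, 1032 to 1104 CPM in dCas9-VPR recruitment, 3871 to 4762 CPM in dCas9-KRAB controls and 3974 to 4046 CPM in dCas9-KRAB recruitment libraries.

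Levels between genes were compared per kilobase of the counted gene length, in the 8 control libraries. TRIM28 was at 260.0 ± 47.3 CPM per kilobase (SD, n = 8), the 99.1st percentile of the tested genes, and its lowest control library (180.1) was above the highest of any other member. CBX1 (HP1 beta) followed at 69.5 ± 13.0, then CBX3 (HP1 gamma) at 44.9 ± 14.6 and SETDB1 at 30.5 ± 3.09. CBX5 (HP1 alpha) was at 26.4 ± 2.28, MPHOSPH8 at 19.6 ± 2.34 and MORC2 at 19.4 ± 2.95. PPHLN1 was at 14.5 ± 2.79, ATF7IP at 11.9 ± 4.34 and FAM208A, the HUSH scaffold, lowest at 5.87 ± 0.626, close to the median of 5.79 over tested genes. Below TRIM28, each member's range overlapped that of the next in this order. The coefficient of variation over the 8 controls was smallest for CBX5 (8.64%) and SETDB1 (10.1%) and largest for ATF7IP (36.6%) and CBX3 (32.5%), against a median of 25.4% over tested genes. This pools both fusions. Within a fusion it was 11.3% (dCas9-VPR) and 8.51% (dCas9-KRAB) for ATF7IP and 2.16% and 2.65% for CBX1, and the largest was that of TRIM28 with dCas9-VPR, 24.5%.

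**Figure D1:**
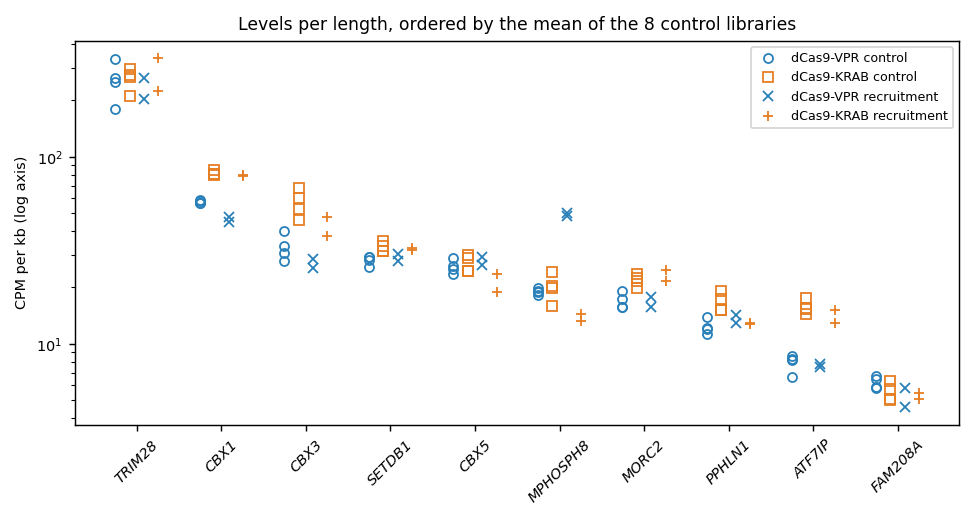
Levels of the 10 members in CPM per kilobase (log axis), ordered by the mean of the 8 control libraries, with 1 symbol per library for the control and recruitment libraries of each fusion. TRIM28 stands above all other members, and MPHOSPH8 in the dCas9-VPR recruitment libraries stands above its other libraries. ATF7IP, CBX1, SETDB1 and MORC2 separate by fusion over all libraries, SETDB1 and MORC2 narrowly, and CBX3 and PPHLN1 do so in the control libraries only.

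Recruitment of dCas9-VPR asks which genes respond when LTR5HS, with the LTR5A and LTR5B elements also bound, is activated. MPHOSPH8, the H3K9me3 reader of HUSH, rose 2.60-fold. CBX1, 1 of the 3 HP1 genes, fell to 0.804 of its control level, and the other 8 members did not pass the test. Tested by quasi-likelihood in edgeR, with p-values adjusted by Benjamini-Hochberg over 16271 genes, 1 of 10 members was higher and 1 of 10 lower, where 28.0% of all tested genes were called (15.7% higher and 12.3% lower). The median log2 fold change of the members was -0.04, and that of all tested genes was -0.02. Of 5 fibroblast markers, 3 were tested and 1, COL1A1, was called higher. Their sum was 2909 to 3013 CPM in recruitment and 62.4 to 98.4 CPM in control libraries, while COL1A2, which fibroblasts express with COL1A1, was at most 0.267 CPM in any library. The sum of 5 trophoblast markers was 22.7 to 31.8 CPM against 6.95 to 13.1 CPM, with CGA at most 0.0569 CPM. Only 1 of them was tested, GATA3, and it was called higher (1.48, SE 0.29). Of the 8 embryonal carcinoma markers, SOX2 was called lower (-1.24, SE 0.25) and L1TD1 higher (1.62, SE 0.26). The part of these markers in the members' values was not tested.

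MPHOSPH8 was at 206 and 215 CPM in dCas9-VPR LTR5HS Sp replicates 1 and 2. It was at 77.8 and 81.4 CPM in the LTR5HS Sa libraries and at 85.0 and 80.3 CPM in the nontarget Sp libraries. Both recruitment libraries were thus far above all 4 controls, and the arrays used as controls lay side by side. The log2 fold change was 1.38 (SE 0.09, 95% interval 1.17 to 1.58, adjusted p = 2.04e-05, edgeR's quasi-likelihood test). Within replicate 1 the log2 ratio was 1.34 and within replicate 2 it was 1.41. In size this change lay at the 88.7th percentile of tested genes.

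CBX1, which binds H3K9me3 as HP1 beta, was at 120.1 and 127 CPM in the 2 recruitment libraries. The 4 control libraries were at 151, 156, 157 and 151 CPM. The groups did not overlap, as was the case for 2 of 10 members against 49.2% of genes in the dCas9-VPR libraries (25.1% higher and 24.1% lower). The log2 fold change was -0.31 (SE 0.09, 95% interval -0.52 to -0.10, adjusted p = 0.0363, edgeR's quasi-likelihood test). The call was lost when any 1 of 5 of the 6 libraries was left out, that is each but dCas9-VPR nontarget Sp replicate 1, with log2 fold changes of -0.36 to -0.27 and adjusted p from 0.0358 to 0.254, and with nontarget Sp alone as the control (adjusted p = 0.118, edgeR's quasi-likelihood test). Reads of CBX1 and CBX3 can be shared with processed pseudogenes, of which 5 and 10 are annotated.

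TRIM28 was at 599 and 778 CPM with recruitment of dCas9-VPR. It was at 783 and 988 CPM in the LTR5HS Sa libraries and at 533 and 744 CPM in the nontarget Sp libraries. Replicate 2 was above replicate 1 in each of the 3 lines, and the groups overlapped. Within replicates 1 and 2 the log2 ratios were -0.13 and -0.15. The log2 fold change of -0.14, from a fit without pairing, had an interval of -0.67 to 0.38, the widest among the members in this comparison. Its sign turned to 0.12 with nontarget Sp alone as the control. SETDB1, its partner methyltransferase, differed by 0.05 on the log2 scale with an interval of -0.18 to 0.28, and the SETDB1 cofactor ATF7IP by -0.05 with an interval of -0.35 to 0.25.

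The remaining members of this comparison also overlapped between groups. CBX3 had a log2 fold change of -0.30 (interval -0.64 to 0.05) and CBX5 of 0.09 (interval -0.15 to 0.34). In HUSH, FAM208A had -0.25 (interval -0.56 to 0.06) and PPHLN1 0.14 (interval -0.12 to 0.40). MORC2 had -0.03 (interval -0.31 to 0.26). Missing the threshold does not show that a gene was unchanged, but a rise as large as that of MPHOSPH8 lay outside the interval of each of these 8 members.

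**Figure D2:**
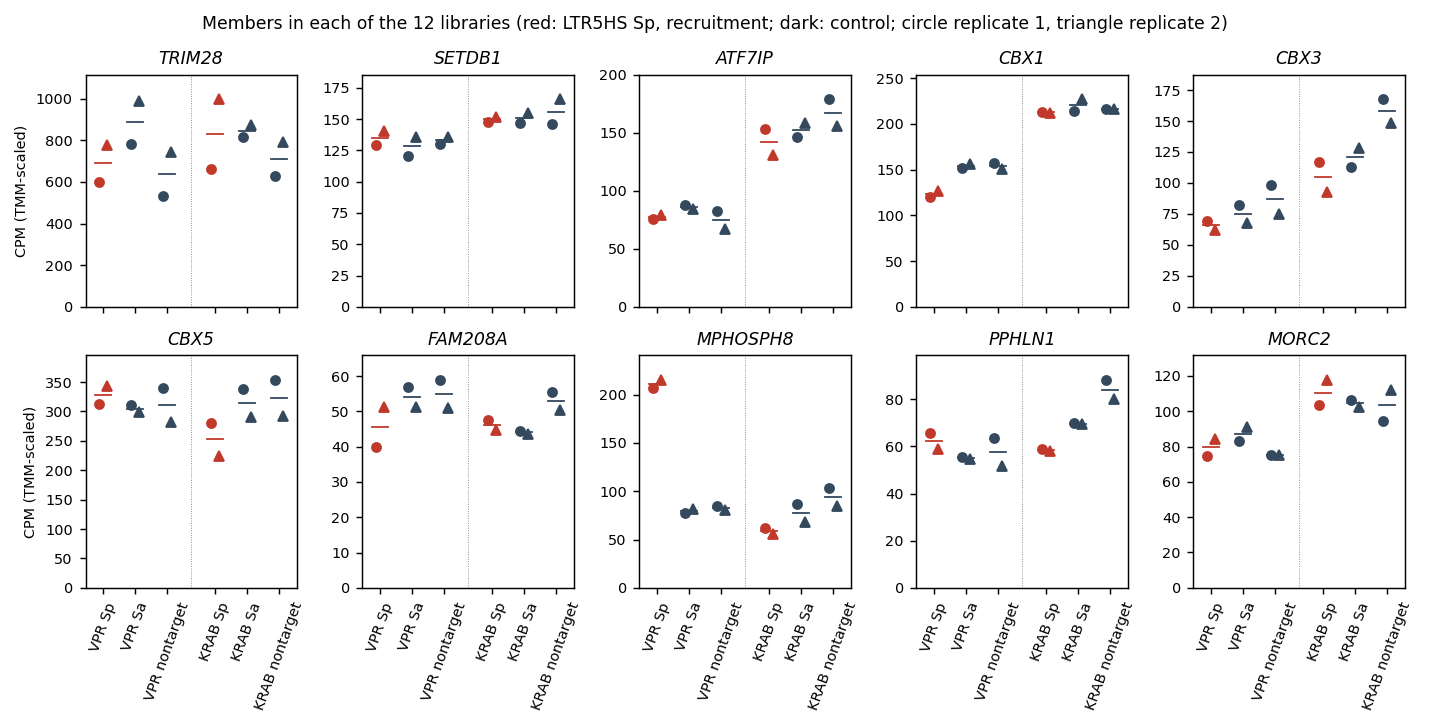
CPM (linear axes starting at 0) of each member in each library, with VPR and KRAB for dCas9-VPR and dCas9-KRAB, a circle for replicate 1, a triangle for replicate 2 and a bar for the mean of a line; recruitment is red and control dark. MPHOSPH8 is at 206 and 215 CPM in the dCas9-VPR recruitment libraries and at 56.2 to 103.5 CPM in the 10 others, and ATF7IP, CBX1 and CBX3 are higher in dCas9-KRAB than in dCas9-VPR control libraries.

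Recruitment of dCas9-KRAB asks the opposite question, which genes respond when the same elements are repressed. The HUSH members MPHOSPH8 and PPHLN1 had the lowest p-values of the 10, with means of 0.686 and 0.762 of the control level, but no member passed the test. Over 15520 genes, 2.77% were called (0.831% higher and 1.94% lower) in edgeR's quasi-likelihood test (Benjamini-Hochberg), and 0 of 10 members were. At an unadjusted p under 0.05 there were 4 members, MPHOSPH8, PPHLN1, CBX5 and CBX3, all with lower means under recruitment. The share of all tested genes past that unadjusted cut was not counted, so these 4 cannot be set against a background. The DESeq2 Wald test called 1, MPHOSPH8. The median log2 fold change of the members was -0.12, against 0.000596 for all tested genes. Of the cell type markers, GATA3 (1.47, SE 0.29) and LUM (3.47, SE 0.45, at most 3.81 CPM) were called higher. None of the 8 embryonal carcinoma markers was called, and the part of these markers in the members' values was not tested.

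MPHOSPH8 was at 61.9 and 56.2 CPM in the dCas9-KRAB LTR5HS Sp libraries. It was at 87.2 and 68.3 CPM in the LTR5HS Sa libraries and at 103.5 and 85.2 CPM in the nontarget Sp libraries. Both recruitment libraries were below all 4 controls, with LTR5HS Sa replicate 2 the nearest. The log2 fold change was -0.54 (SE 0.16, 95% interval -0.89 to -0.19, adjusted p = 0.137, edgeR's quasi-likelihood test), with log2 ratios of -0.62 and -0.45 within replicates 1 and 2. It was called with nontarget Sp alone as the control (-0.68, adjusted p = 0.0377), without dCas9-KRAB LTR5HS Sa replicate 2 (-0.64, adjusted p = 0.0381) and by the DESeq2 Wald test (adjusted p = 0.0338), but not with LTR5HS Sa alone (-0.40, adjusted p = 0.369), the others being edgeR's quasi-likelihood test.

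PPHLN1 was at 58.8 and 58.2 CPM with recruitment of dCas9-KRAB. Its LTR5HS Sa libraries were at 69.8 and 69.4 CPM and its nontarget Sp libraries at 88.1 and 80.0 CPM. The recruitment libraries were the lowest of the 6, and the nontarget Sp libraries the highest. The log2 fold change was -0.39 (SE 0.13, 95% interval -0.68 to -0.11, adjusted p = 0.190, edgeR's quasi-likelihood test). It was -0.42 within replicate 1 and -0.36 within replicate 2.

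Among the HP1 genes, CBX5 was at 281 and 224 CPM with recruitment of dCas9-KRAB and at 339, 291, 353 and 292 CPM in the controls. Its groups did not overlap, and the log2 fold change was -0.33 (interval -0.63 to -0.04, adjusted p = 0.295, edgeR's quasi-likelihood test). CBX3 had -0.41 (interval -0.78 to -0.03, adjusted p = 0.316, the same test) with overlapping groups. In CBX1 the 2 recruitment libraries, at 213.5 and 211.6 CPM, were just under the lowest control at 213.8 CPM, and the log2 fold change was -0.04 (interval -0.24 to 0.17). In all, 4 of 10 members (CBX1, CBX5, MPHOSPH8 and PPHLN1) did not overlap between groups, each lower under recruitment, against 23.0% of genes in the dCas9-KRAB libraries (11.1% higher and 11.8% lower).

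TRIM28, through which the KRAB domain acts, was at 664 and 996 CPM with recruitment of dCas9-KRAB and at 814, 872, 628 and 793 CPM in the controls. The 2 recruitment libraries lay on either side of most controls. Its log2 fold change was 0.10 with an interval of -0.29 to 0.49. SETDB1 had -0.03 (interval -0.26 to 0.20), ATF7IP -0.16 (interval -0.43 to 0.10), FAM208A -0.07 (interval -0.36 to 0.22) and MORC2 0.09 (interval -0.17 to 0.34).

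The effect of recruitment was then compared between fusions, as the CRISPRa log2 fold change minus the CRISPRi log2 fold change in 1 fit of all 12 libraries. Of 10 members, 2 were called, MPHOSPH8 and PPHLN1, each with the higher value for dCas9-VPR. Of all 16673 tested genes, 21.0% were called (11.5% in this direction and 9.53% in the other), a share close to that of the members. For MPHOSPH8 the difference was 1.92 (SE 0.19, 95% interval 1.51 to 2.33, adjusted p = 9.22e-06, edgeR's quasi-likelihood test). For PPHLN1 it was 0.53 (SE 0.17, 95% interval 0.16 to 0.91, adjusted p = 0.0417, the same test), although neither of its 2 effects was called alone. The PPHLN1 call was lost when any 1 of 9 of the 12 libraries was left out, with adjusted p from 0.0205 to 0.169 over the 12 fits of edgeR's quasi-likelihood test and differences of 0.46 to 0.61. The 3 libraries without which it stayed called were both dCas9-KRAB LTR5HS Sa libraries and dCas9-VPR nontarget Sp replicate 1. CBX5 (0.43, interval 0.06 to 0.80) and CBX1 (-0.28, interval -0.51 to -0.04) were past an unadjusted p of 0.05 and not past the adjusted one. The other 6 members had intervals that included 0, among them FAM208A, the HUSH scaffold (-0.18, interval -0.59 to 0.22).

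**Figure D3:**
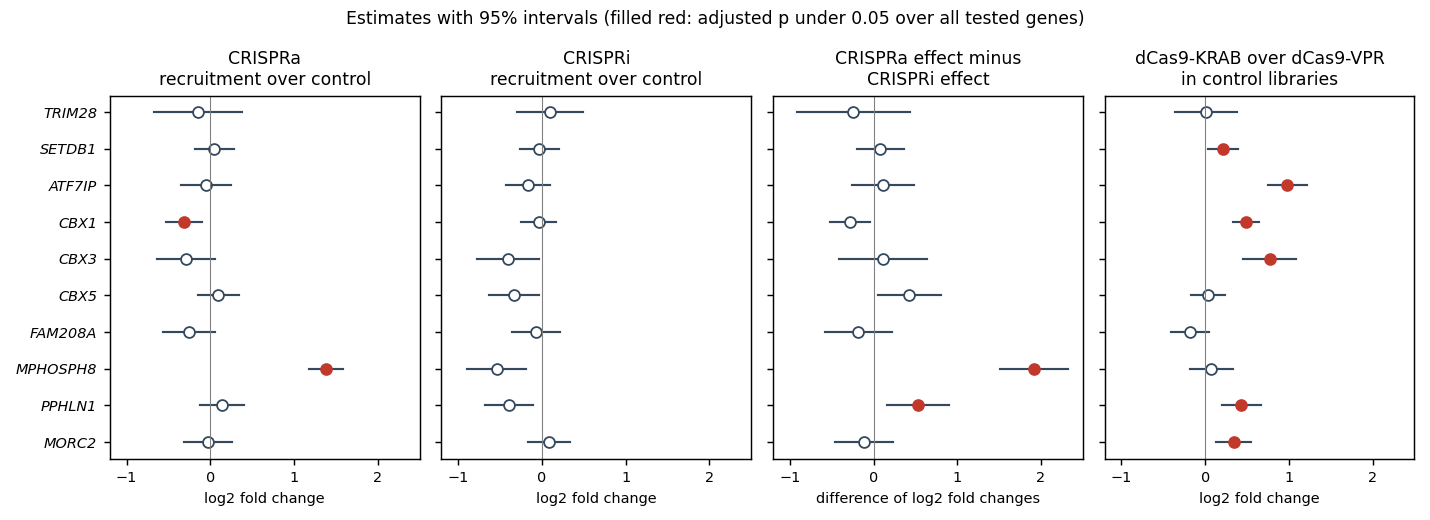
Log2 fold changes of the 10 members with 95% intervals in the 2 recruitment comparisons, their difference, and the comparison of fusions in control libraries; a filled red point passed the adjusted threshold of 0.05 over all tested genes. MPHOSPH8 lies at 1.38 with CRISPRa and -0.54 with CRISPRi, and 6 members pass in the comparison of fusions, all above 0.

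MPHOSPH8 and PPHLN1 were the only 2 of the 10 members with a guide match within 50 kb of the TSS, a window chosen after the values had been seen. Among genes tested with CRISPRa and placed on the genome, 936 of 15732 (5.95%) had such a match, and 57.7% of these were called higher, against 15.8% of all placed genes. With CRISPRi, 24.5% of 852 such genes were called lower, against 1.96% of all placed genes. PPHLN1, with the nearest match of any member, was in neither set of called genes. Around MPHOSPH8, 3 further genes with a TSS within 500 kb of the guide cluster were tested. They lie farther from it, PSPC1 at 182.4 kb, ZMYM5 at 263.1 kb and ZMYM2 at 358.2 kb, against 33.1 kb for MPHOSPH8. TPTE2, 39.0 kb away on the other side, was not tested, with means of 0.108 CPM in dCas9-VPR recruitment and 0.130 CPM in dCas9-VPR control libraries. PSPC1 had a CRISPRa log2 fold change of -0.15 (SE 0.10), ZMYM5 of 0.04 (SE 0.23) and ZMYM2 of 0.09 (SE 0.12), and with CRISPRi the values were -0.02 (SE 0.12), -0.28 (SE 0.20) and -0.29 (SE 0.12). None was called with either fusion, and ZMYM2 with CRISPRi was at an unadjusted p of 0.0325 and an adjusted p of 0.303 (edgeR's quasi-likelihood test). In RefSeq the ends of MPHOSPH8 and PSPC1 overlap by 2.24 kb, and cDNA synthesis as described, with random hexamers, RNase H and DNA polymerase I, does not mark strand, so that reads there cannot be told apart. FAM208A shares 306 exonic bases with CCDC66 and MORC2 shares 91 with MORC2-AS1, both on the other strand.

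**Figure D4:**
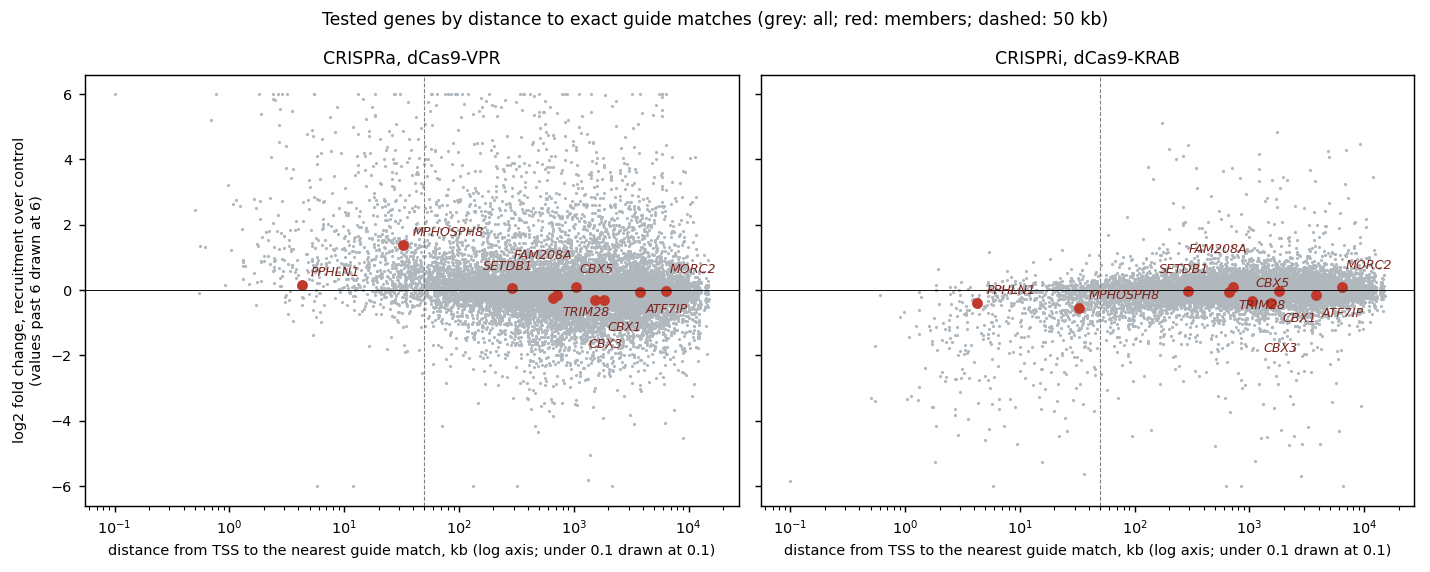
Log2 fold change with recruitment over control against the distance from the TSS to the nearest guide match in kb (log axis), for CRISPRa and CRISPRi; grey points are all tested genes that could be placed and red points the members. MPHOSPH8, at 32.9 kb, lies above 0 with CRISPRa and below 0 with CRISPRi, PPHLN1 is at 4.26 kb, and the other 8 members are at 290.6 kb or more.

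Control libraries were compared between fusions to ask how the machinery stood without recruitment. Of the members, 6 of 10 were higher in dCas9-KRAB than in dCas9-VPR controls and 0 lower, in edgeR's quasi-likelihood test over 15448 genes, of which 54.9% were called (27.7% higher and 27.2% lower). ATF7IP, the SETDB1 cofactor, had the largest difference, 1.99-fold. The median log2 difference was 0.28 for the members and 0.00878 for all tested genes. The 6 were also the members whose groups did not overlap, a property that 48.0% of genes had (24.8% in this direction and 23.2% in the other). The embryonal carcinoma marker sum given above was higher in every dCas9-KRAB control than in any dCas9-VPR control, all 8 of its genes being called higher, and its part in these differences was not tested. Sums of the fibroblast, trophoblast, endoderm and blood markers were all lower with dCas9-KRAB, at most 24.1 CPM each, and the neural sum was 24.6 to 58.7 CPM against 10.8 to 23.9 CPM. Nearly all of the blood sum was CD74 (18.8 to 35.2 CPM over all libraries), with PTPRC at most 0.0557 CPM and HBB at 0 CPM. COL1A2 (fibroblast) was at most 0.267 CPM and CGA (trophoblast) at most 0.0569 CPM in any library. COL1A1, COL3A1 and GATA3 were at least 4.74, 1.33 and 1.16 CPM in every library. Whether cells of these types were present was not tested. In bulk RNA, fewer cells of a type and less RNA per cell cannot be told apart.

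ATF7IP was at 146, 158, 179 and 156 CPM in the dCas9-KRAB controls and at 87.5, 84.0, 82.3 and 67.0 CPM in the dCas9-VPR controls. The lowest dCas9-KRAB library was far above the highest dCas9-VPR library. The log2 difference was 0.98 (SE 0.11, 95% interval 0.75 to 1.21, adjusted p = 2.78e-05, edgeR's quasi-likelihood test). In recruitment libraries the levels were alike in order, 153 and 131 CPM with dCas9-KRAB and 75.5 and 79.3 CPM with dCas9-VPR.

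Of the HP1 genes, CBX3 was at 113, 128, 167 and 148 CPM with dCas9-KRAB and at 82.2, 67.8, 98.6 and 75.3 CPM with dCas9-VPR in controls. The groups did not overlap, and within dCas9-KRAB the nontarget Sp libraries were the higher ones. The log2 difference was 0.77 (SE 0.14, adjusted p = 0.000959, edgeR's quasi-likelihood test). CBX1 was at 214 to 227 CPM against 151 to 157 CPM, a tight separation, with a log2 difference of 0.49 (SE 0.07, adjusted p = 0.000169, the same test). CBX5 differed by 0.04 (interval -0.17 to 0.24), and the difference between the 3 paralogues was not tested.

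PPHLN1 was 0.43 log2 units higher with dCas9-KRAB (SE 0.11, adjusted p = 0.00528, edgeR's quasi-likelihood test), at 69.4 to 88.1 CPM against 51.8 to 63.6 CPM. MORC2 was 0.34 higher (SE 0.10, adjusted p = 0.0103, the same test), at 94.6 to 112 CPM against 75.2 to 90.9 CPM, and lost its call with LTR5HS Sa libraries only (0.24). SETDB1 was 0.22 higher (SE 0.08, adjusted p = 0.0416, the same test), at 146 to 166 CPM against 120.3 to 136 CPM. The SETDB1 call was lost when any 1 of 6 of the 8 libraries was left out, each but dCas9-KRAB LTR5HS Sa replicate 1 and dCas9-KRAB nontarget Sp replicate 1, with differences of 0.17 to 0.25 and adjusted p from 0.0421 to 0.144 over the 8 fits of edgeR's quasi-likelihood test.

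TRIM28 differed by 0.01 between fusions (interval -0.36 to 0.38), at 628 to 872 CPM with dCas9-KRAB and 533 to 988 CPM with dCas9-VPR. MPHOSPH8 differed by 0.07 (interval -0.19 to 0.33) and FAM208A by -0.18 (interval -0.41 to 0.05). Of the HUSH members, PPHLN1 was thus called between fusions, and MPHOSPH8 and FAM208A were not. The PPHLN1 interval of 0.20 to 0.67 overlapped that of MPHOSPH8 and not that of FAM208A, and the difference between these genes was not tested. Between the 2 control arrays, none of the 10 members was called in either fusion by edgeR's quasi-likelihood test, where 5.24% of genes were called with dCas9-VPR (2.15% higher and 3.09% lower in LTR5HS Sa) and 0.612% with dCas9-KRAB (0.312% higher and 0.300% lower). At an unadjusted p under 0.05, a cut for which no share of all genes was counted, there were TRIM28 with dCas9-VPR and CBX3 and PPHLN1 with dCas9-KRAB. TRIM28 had the largest such value, 0.47 higher in LTR5HS Sa than in nontarget Sp with dCas9-VPR (SE 0.22, adjusted p = 0.265, the same test).

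Over the 12 libraries, Pearson correlations of log2 CPM are given as a description, since libraries share lines and fusions. ATF7IP went most closely with CBX1 (r = 0.93) and CBX3 (r = 0.89) among the members. The genes most alike to ATF7IP over all tested genes were SUPT20H (0.99), TOX (0.99) and NSL1 (0.99), and those most alike to CBX1 were HSP90AA1 (0.99), HMMR (0.99) and GLUD1 (0.99). For CBX3 they were METAP2 (0.99), SMC6 (0.99) and PRPF4B (0.99). MPHOSPH8 was most like SNX9 (0.98), CEACAM19 (0.98) and FAM86EP (0.98), and TRIM28 most like the chromatin remodeller SMARCA4 (0.97), TSC22D1-AS1 (0.96) and USP19 (0.96). MORC2 was most like IGFLR1 (0.98), SETDB1 like TMEM258 (0.96), PPHLN1 like PTBP2 (0.95), CBX5 like TMEM67 (0.94) and FAM208A like SCYL3 (0.92).

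The rest of the pathway was followed in 6 lists, chosen with earlier results of these data known. KRAB zinc finger genes that bind transposable elements or imprinted regions, the proteins that bring TRIM28 to DNA, had the largest median changes of these lists in both recruitment comparisons. With CRISPRa, 5 of 8 tested were higher and 0 lower, against 15.7% of all tested genes higher, led by ZNF649 (log2 fold change 2.63, SE 0.17), ZNF611 (1.87, SE 0.15) and ZNF765 (1.48, SE 0.16). With CRISPRi, 3 of 8 were lower and 0 higher, against 1.94% of all tested genes lower, ZNF649 (-1.45, SE 0.23), ZNF611 (-1.39, SE 0.23) and ZNF587 (-0.67, SE 0.11). The list median was 0.68 with CRISPRa and -0.47 with CRISPRi. Guide matches lay 1.08 kb from the TSS of ZNF649, 6.42 kb from that of ZNF611, 20.5 kb from that of ZNF587 and 25.7 kb from that of ZNF765. ZNF91, the fifth gene called with CRISPRa (0.75, SE 0.18), was 297.5 kb from a match, and the 3 tested but uncalled genes ZNF93, ZNF417 and ZNF445 were 55.0, 87.2 and 1219 kb away. These genes belong to a family with near-identical copies, so their counts are uncertain.

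Calls in the 5 other lists with CRISPRa are read against 15.7% of all tested genes higher and 12.3% lower. With CRISPRi none of these lists had a call in edgeR's quasi-likelihood test. At an unadjusted p under 0.05 there were 5 of their genes, and the share of all tested genes past that cut was not counted. Of the H3K9 methyltransferases besides SETDB1, 1 of 5 was lower, SUV39H2 (-0.54, SE 0.16). Of 10 H3K9 demethylases, 1 was higher, KDM3A (0.65, SE 0.10), and of 13 genes of the NuRD complex, the TRIM28-bound histone deacetylase and remodeller, 1 was higher, CHD3 (0.89, SE 0.26). Of 10 genes of SUMO conjugation, which couples TRIM28 to SETDB1, 3 were lower, SAE1 (-0.60, SE 0.10), UBA2 (-0.55, SE 0.12) and SUMO3 (-0.35, SE 0.09). Of 13 relatives and partners, 3 were lower, the chromatin assembly subunits CHAF1B (-1.22, SE 0.13) and CHAF1A (-0.51, SE 0.13) and MORC4 (-0.65, SE 0.15).

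Between fusions in control libraries, where 27.7% of all tested genes were higher with dCas9-KRAB and 27.2% lower, 4 of the 6 lists had more calls than with CRISPRa, and the H3K9 methyltransferases and KRAB zinc finger genes did not. Among demethylases 6 of 10 were higher with dCas9-KRAB, led by JMJD1C (1.35), KDM4C (1.30) and KDM7A (1.09), and 1 was lower, KDM4B (-0.41). In NuRD 4 of 13 were higher, led by MTA3 (1.30), HDAC2 (0.81) and MBD2 (0.45), and 3 were lower, MBD3 (-0.76), CHD4 (-0.41) and HDAC1 (-0.38). In SUMO conjugation 4 of 10 were higher, among them UBA2 (0.71) and SUMO2 (0.51), and none was lower. Among relatives and partners 7 of 13 were higher, led by ATF7IP2 (0.62), MORC3 (0.59) and ATRX (0.52), and 2 were lower, MORC4 (-0.65) and TRIM66 (-0.64). SUV39H1 (-0.40) was the 1 of 5 methyltransferases called, and ZNF93 (1.00) and ZNF649 (0.50) the 2 of 8 KRAB zinc finger genes.

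**Figure D5:**
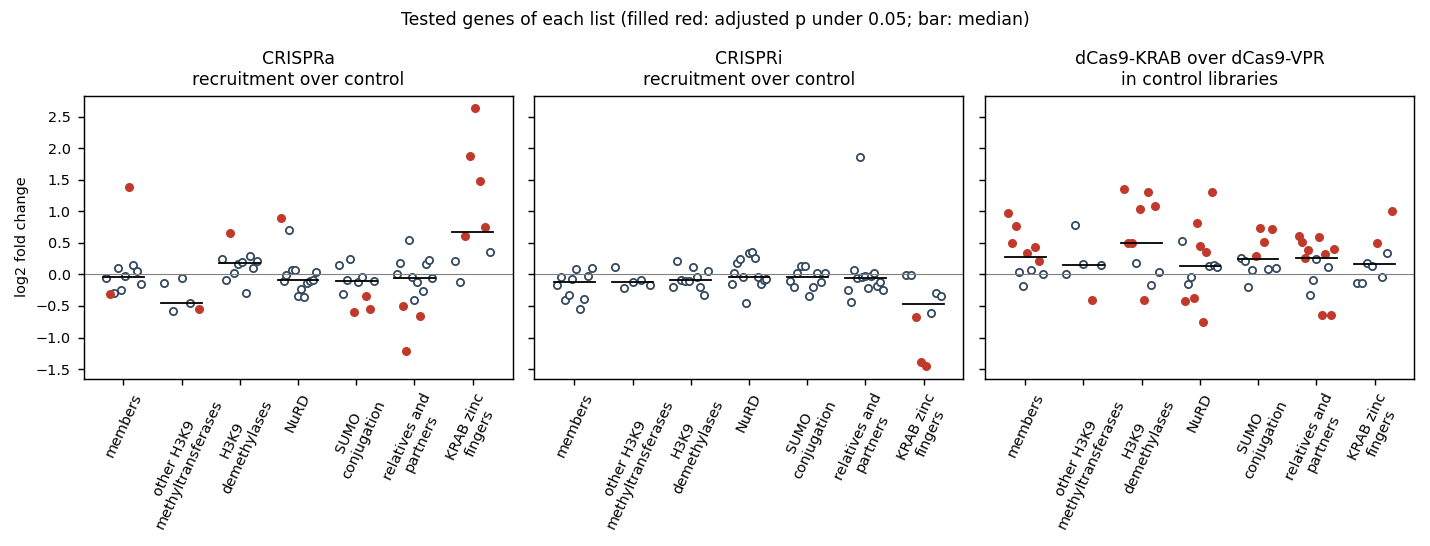
Log2 fold change of each tested gene of the members and of the 6 further lists in the 2 recruitment comparisons and between fusions in control libraries; filled red points passed the adjusted threshold of 0.05 and bars are medians. The KRAB zinc finger genes have the highest median with CRISPRa (0.68) and the lowest with CRISPRi (-0.47).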

How the data were processed

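Poly(A) RNA-seq of 6 NCCIT lines was made in 2 replicates each. The deposited values are raw counts per gene, made by the authors with CASAVA 1.8, cutadapt 1.8.1, HISAT2 2.1.0 and featureCounts 1.4.6-p2 on hg38, per the submitters' processing notes. The deposited gene lengths were used for levels per length. The annotation and strand setting are not given in the sources used here. The authors tested their counts with DESeq2.

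Here counts were tested with edgeR 4.0.16 (R 4.3.3) by glmQLFit and glmQLFTest after filterByExpr and TMM scaling, over all genes passing the filter, with Benjamini-Hochberg adjustment and a threshold of 0.05. CRISPRa and CRISPRi fits used the 6 libraries of a fusion, the fusion fit the 8 control libraries and the difference of effects all 12. CPM are TMM-scaled, and mean ± SD is over libraries. Intervals and the detection floor of 3 counts (0.0430 to 0.221 CPM) cover counting or replicate error only. Alternatives were DESeq2 1.42.0, its size factors in edgeR, other filters, a threshold of 0.01, single control arrays, a replicate block, summed replicates and leaving out each library. Figures were drawn with Python 3.11.15 and matplotlib 3.10.9. Correlations used log2(CPM + 0.5).

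The members, the gene lists and the tests were chosen with earlier results of these data known. The text names all members, per list and comparison up to 3 called genes in each direction by size, and the genes most correlated with each member, beside PCAT14, ZNF10 and RELA as checks. 1 gene that this rule would name is not reported here. Genes around guide matches were placed by GENCODE 44 and matched by symbol or RefSeq synonym (92.2% of the table). Guide sequences came from the study's guide list. The comparison of control arrays and the 50 kb window were added after the data were seen.

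Replicates of a line differed by 9.15 to 40.4 in chi-square per gene, where 1 is sampling alone, so none was a repeat of another. Within a fusion, deviations of same-numbered libraries from their line means correlated at 0.195 to 0.467 in every pair, so the numbers pair libraries in the CRISPRa and CRISPRi comparisons. This pairing comes from the data, since the labels give only the number. The main fits left it out, so their intervals include any shift shared by a replicate number, and the replicate block was an alternative.

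The tests were run on simulated counts with known changes. For each comparison, 200 genes drawn from all tested genes were changed, fewer than were called in the data. The shares recovered therefore need not hold for the members. At a log2 change of 1, 61 of 99 genes were recovered for CRISPRa, 65 of 100 for CRISPRi, 63 of 96 between fusions and 24 of 94 for the difference of effects. At a log2 change of 2 these were 88 of 99, 90 of 100, 96 of 97 and 76 of 100. False calls were 8 of 157, 12 of 167, 10 of 169 and 5 of 105 in the same order.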

Additional observations from a re-analysis of the deposited data

Results flagged for a closer look

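The effect of recruitment on 2 members differed between fusions by a test of the difference itself. MPHOSPH8 had a CRISPRa effect 1.92 log2 units above its CRISPRi effect, with both dCas9-VPR recruitment libraries above and both dCas9-KRAB recruitment libraries below their controls. PPHLN1 had a difference of 0.53 log2 units, with both dCas9-KRAB recruitment libraries below their controls and dCas9-VPR groups that overlapped. No member had a control library that stood apart from the other 3 of its fusion in the 20 groups looked at, of which chance flags about 1 in 20.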

How the results depend on the processing

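The MPHOSPH8 rise with CRISPRa was called under all 16 alternatives (1.34 to 1.42, adjusted p up to 0.000639), its difference between fusions under all 18 (1.82 to 2.01), and the ATF7IP, CBX1, CBX3 and PPHLN1 differences between control libraries under all 19 (adjusted p by edgeR or DESeq2 up to 0.0440). A threshold of 0.01 left 2517 genes with CRISPRa, 236 with CRISPRi and 1944 for the difference of effects, and took the members lower with CRISPRa to 0 and those with a higher difference of effects to 1. Between fusions, MORC2 (adjusted p = 0.0103) and SETDB1 (adjusted p = 0.0416, both edgeR's quasi-likelihood test) did not pass 0.01. Members higher there ranged from 4 to 6 over the 19 alternatives, with SETDB1 called under 6 of them and MORC2 under 17. The DESeq2 Wald test called 716 genes with CRISPRi, 1 member lower there (MPHOSPH8) and 1 with a lower difference of effects (CBX1, -0.29). With nontarget Sp alone as the control, 0 members were lower with CRISPRa and 1 (MPHOSPH8) with CRISPRi. With LTR5HS Sa libraries only, 1 member (FAM208A, -0.33) was lower with dCas9-KRAB, and without a filter 1 member had a higher difference of effects. The cause of these changes was not tested. Uncalled estimates changed sign for TRIM28 (0.12), ATF7IP (0.0597) and MORC2 (0.0862) with nontarget Sp alone under CRISPRa and for TRIM28 (-0.0198) and FAM208A (0.0665) with LTR5HS Sa alone under CRISPRi. Between fusions, TRIM28 was at -0.00221 with DESeq2's size factors, -0.00213 by its Wald test, -0.0224 with at least 10 counts in every library and -0.10 with LTR5HS Sa libraries only, where MPHOSPH8 was at -0.0613.

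Leaving out each library gave 2299 to 4626 genes with CRISPRa, lowest without either dCas9-VPR LTR5HS Sp library (2312 without replicate 1, 2299 without replicate 2), and 214 to 441 with CRISPRi, lowest without either dCas9-KRAB LTR5HS Sp library (234 and 214) and 285 without nontarget Sp replicate 2. Where a group was left with 1 library, it was assumed to vary like the others. Members lower ranged from 0 to 1 with CRISPRa and from 0 to 1 with CRISPRi, and those with a higher difference of effects from 1 to 2. Uncalled estimates changed sign within these ranges under CRISPRa: TRIM28 -0.36 to 0.0385, SETDB1 -0.0250 to 0.12 and MORC2 -0.13 to 0.0646. Under CRISPRi they were TRIM28 -0.23 to 0.36, SETDB1 -0.0581 to 0.00981 and MORC2 -0.00993 to 0.17. Between fusions they were TRIM28 -0.13 to 0.16, CBX5 -0.0136 to 0.0865 and MPHOSPH8 -0.0267 to 0.17, and for the difference of effects TRIM28 -0.52 to 0.0765 and CBX3 -0.0516 to 0.28. With the replicate block, CRISPRa gave 4961 genes, CRISPRi 507, the fusions 8699 and the difference of effects 4056. No call of a member changed with the block except that CBX5 gained one for the difference of effects (0.44, adjusted p = 0.0350, edgeR), where only 13 of 15 pairs of libraries correlated over 0.1 and the samples share only a number.

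With 2 recruitment libraries a fusion, the intervals in the report set the size of change that was detectable. Each condition is 1 line, so a line's own history cannot be told apart from its array or fusion.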
